A study of Mus musculus with 10 samples.

Results

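Tomato hybrid cells (THC) were set against Tomato luminal cells (TLC), both sorted from mouse mammary glands after luminal cell ablation, with 2 libraries of each population, or 4 of the 10 libraries of the series. The members are set by the cell type label, but this comparison, the lists and the rules were chosen with earlier results of these data known. Tomato is a red fluorescent protein that is inherited by the progeny of the cells in which it was switched on, and in the published study it marked basal cells before the ablation. The other libraries are Tomato basal cells (TBC), also taken after luminal ablation, and basal cells (BC) and luminal cells (LC) for which the labels give no ablation, with 2 libraries each. The second BC and LC libraries carry the additional label WT. RNA was measured in bulk from FACS-sorted, antibody-stained cells, and libraries were made with the Ovation Solo RNA-Seq System. The labels give neither the antibodies or gates, the promoters behind the Tomato label and the ablation, the agent that killed the luminal cells, nor strain, sex or age, so a hybrid cell is here what the label calls one. Nothing says that the 2 libraries of a population come from separate mice, so the p-values measure the spread between libraries, which may be technical. No pairing is stated either.

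The mammary epithelium is a bilayer. Basal cells lie on the basement membrane, express keratins 5 and 14 and the transcription factor p63, and contract on oxytocin to eject milk, for which they carry smooth-muscle contractile proteins. Luminal cells line the duct, express keratins 8, 18 and 19, are joined by claudin tight junctions, and include hormone-sensing cells with oestrogen and progesterone receptors as well as secretory progenitors. Cells that hold both kinds of marker are called hybrid, and killing luminal cells is a setting in which basal cells are known to give rise to luminal cells.

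Counts assigned to genes were 2757773 and 13601753 in the THC libraries and 5632671 and 9799263 in the TLC libraries, within the range of the series, 2757773 to 13685674. THC replicate 1 stood apart as the shallowest library and as the one with 43% of its reads mapped to more than 1 place, against 14.6% to 22.4% in the other 9. Levels below are CPM, the counts of a gene relative to the library total after scaling by TMM factors, and 3 counts were worth between 0.202 and 1.16 CPM in these 4 libraries. A gene was called when its adjusted p was under 0.05 in the quasi-likelihood test of edgeR (Benjamini-Hochberg adjustment), fitted to all 10 libraries and 19757 genes; all adjusted p-values below come from that test, and fold changes are given with their standard error (SE).

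Genes were called mostly in 1 direction. Of the genes tested, 318 (1.61%) were called, 300 of them higher in THC (1.52%) and 18 lower (0.0911%), while the median log2 fold change over all genes was 0.02 and 51.9% of genes were above 0. At an unadjusted p under 0.05 there were 2394 of the 19757 genes, 1833 higher and 561 lower. List counts at an unadjusted p stand beside this number. The counts of called genes in the lists below stand beside the shares of 1.52% higher and 0.0911% lower. Cnn1, Acta2 and Myh11, which encode smooth-muscle proteins, were among the largest rises, and the luminal factor Ehf, the desmosome gene Pkp1 and the claudin Cldn7 were among the falls. The number of calls depended on single libraries: without TLC replicate 2 no gene was called by edgeR, although 1901 still had an unadjusted p under 0.05, and all 318 genes kept their direction. Without THC replicate 1, THC replicate 2 or TLC replicate 1 the count was 171, 57 or 60. DESeq2 called 782 genes and limma-voom 332 with all libraries.

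The contractile genes of myoepithelium were the group with the highest median. Of 19 contractile genes, 12 rose in THC and none fell, against 1.52% of all genes that rose, and the median log2 fold change of the list was 3.21. Both THC libraries were above both TLC libraries for 17 of the 19, as they were for 21.7% of all genes. Cnn1, which encodes the smooth-muscle actin-binding protein calponin, had 160 and 143 CPM in THC and 4.39 and 8.1 CPM in TLC. It was 23.5-fold higher in THC (log2 fold change 4.55 ± 0.414 SE, adjusted p = 0.0013), and its gene lies on chromosome 9 at 22099216 to 22109630 (GRCm38, GENCODE). Acta2, smooth-muscle alpha-actin, had 1291.6 and 997 CPM in THC and 55.6 and 58 CPM in TLC (log2 fold change 4.33 ± 0.5 SE, adjusted p = 0.0037). For both genes the gap between the populations exceeded that between replicates, although the TLC replicates of Cnn1 stood at 4.39 and 8.1 CPM.

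Myh11, the smooth-muscle myosin heavy chain, had 757 and 1077.4 CPM in THC and 36.7 and 55.3 CPM in TLC (log2 fold change 4.31). Tagln, which encodes the actin-bundling protein transgelin, had 408 and 348 CPM in THC and 37.5 and 35.3 CPM in TLC (log2 fold change 3.37 ± 0.304 SE, adjusted p = 0.0013). Oxtr, the oxytocin receptor that triggers milk ejection, had 488 and 394 CPM in THC and 44.6 and 37 CPM in TLC (log2 fold change 3.44 ± 0.419 SE, adjusted p = 0.0044). These 3 genes did not overlap between the populations. The other called members were Myl9, Mylk, Tpm2, Lmod1, Synpo2, Cnn2 and Des, with log2 fold changes of 3.93, 2.67, 2.03, 3.05, 3.47, 1.47 and 3.23. Members that did not pass were Actg2 and Myocd, at 3.28 and 3.21 on the log2 scale with adjusted p = 0.089 and 0.098, and Tpm1, Cald1, Smtn, Pdlim3 and Pdlim7, whose log2 fold changes lay between 0.21 and 0.69. Tpm1, Cald1 and Smtn were well expressed in TLC, with 467 to 498, 290 to 488 and 147 to 158 CPM.

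**Figure D1:**
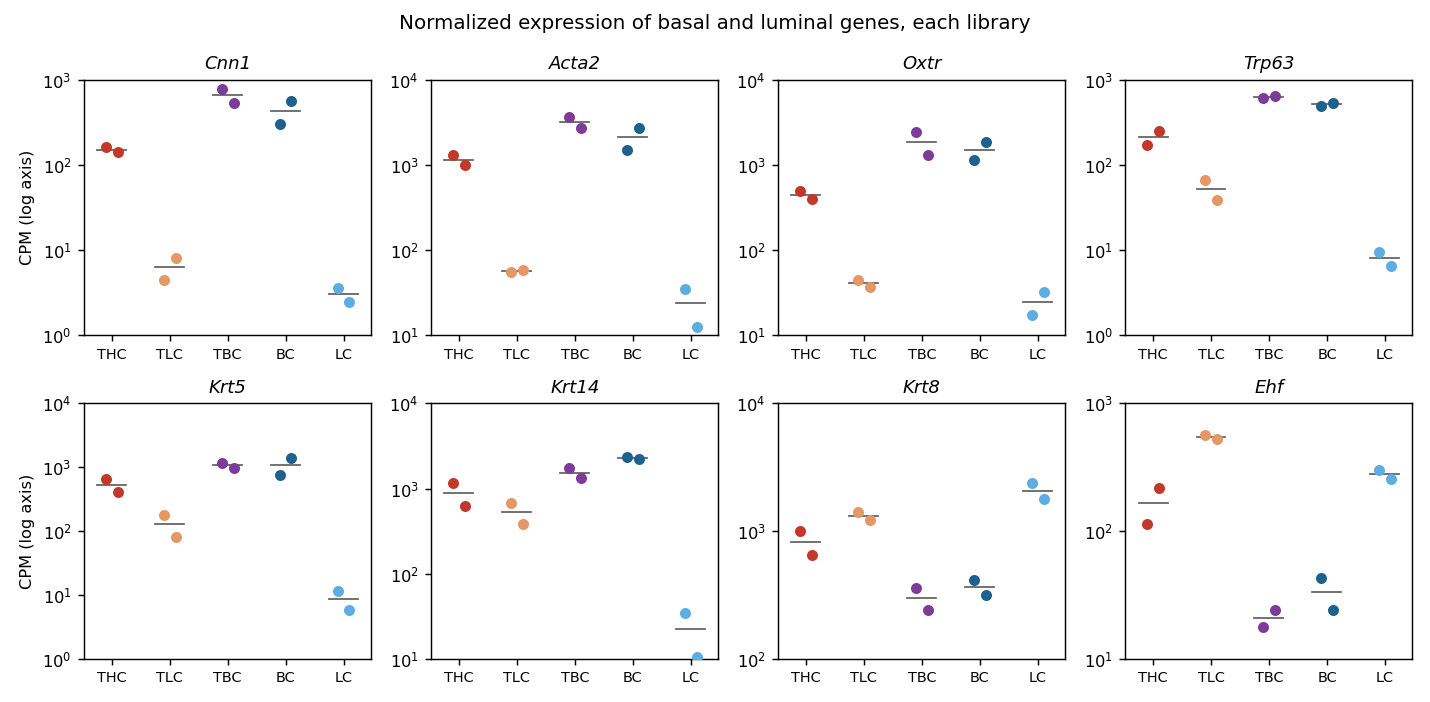
CPM on a log axis for 8 basal and luminal genes in each library (points, 2 per population; the line is their mean), in Tomato hybrid (THC), Tomato luminal (TLC), Tomato basal (TBC), basal (BC) and luminal (LC) cells. Cnn1, Acta2 and Oxtr were 23.5-fold, 20.1-fold and 10.8-fold higher in THC than in TLC, Krt14 overlapped, and Ehf was lower in THC.

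The promoters of Acta2, Cnn1 and Oxtr, which have the smallest adjusted p among the called contractile genes that the RefSeq table holds, are printed because CArG boxes, the sites of serum response factor, are the known control elements of smooth-muscle genes. They are the 250 bases before the RefSeq start (GRCm38.p6), written in the direction of the gene, with CArG boxes in capitals. Allowing up to 1 G or C in the A/T core, a relaxation chosen after seeing the sequences, gave 2 matches in the Acta2 promoter, which begin 84 and 34 bases before the start, and none in those of Cnn1 and Oxtr.
Acta2, minus strand, chr19:34255374-34255623: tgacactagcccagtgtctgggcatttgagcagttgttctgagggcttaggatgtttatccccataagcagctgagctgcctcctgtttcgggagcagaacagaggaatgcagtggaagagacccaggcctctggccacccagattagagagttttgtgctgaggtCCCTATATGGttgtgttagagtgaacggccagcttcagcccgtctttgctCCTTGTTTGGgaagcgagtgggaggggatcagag
Cnn1, plus strand, chr9:22099003-22099252: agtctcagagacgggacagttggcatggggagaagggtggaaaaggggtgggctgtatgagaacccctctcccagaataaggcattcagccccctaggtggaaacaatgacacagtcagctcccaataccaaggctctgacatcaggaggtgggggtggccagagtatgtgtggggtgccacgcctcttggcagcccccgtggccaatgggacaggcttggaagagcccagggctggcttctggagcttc
Oxtr, minus strand, chr6:112489826-112490075: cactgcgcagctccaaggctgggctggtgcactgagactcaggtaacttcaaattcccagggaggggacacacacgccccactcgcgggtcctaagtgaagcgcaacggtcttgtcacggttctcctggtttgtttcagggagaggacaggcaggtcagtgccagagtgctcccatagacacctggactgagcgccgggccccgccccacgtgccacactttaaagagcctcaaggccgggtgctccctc

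Over the list, 15 of the 19 contractile genes had 16 promoters in the RefSeq table. A strict CArG box stood in 2 of the 16 (12.5%), those of Cnn2 and Myl9, against 1.47% of 32851 promoters of all genes. The relaxed box stood in 4 (25%), which added Acta2 and Pdlim3, against 8.59% of all. Pdlim3, which holds a relaxed box, was not called. A CArG box reads as a CArG box on both strands, so each match counts once.

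Of 20 transcription factors and signals of basal cells, 7 rose and none fell, against 1.52% of all genes that rose. The median log2 fold change was 1.51. Trp63, which encodes the basal master regulator p63, had 170 and 250 CPM in THC and 66.3 and 38.6 CPM in TLC. It was 4.03-fold higher in THC (log2 fold change 2.01 ± 0.309 SE, adjusted p = 0.011) and lies on chromosome 16 at 25683763 to 25892102. Snai2, a zinc-finger repressor of epithelial genes, had 66.6 and 75 CPM in THC and 17.4 and 8.74 CPM in TLC (log2 fold change 2.47 ± 0.368 SE, adjusted p = 0.01). Id4, a helix-loop-helix inhibitor expressed in basal cells, had 132 and 223 CPM in THC and 40.2 and 38.9 CPM in TLC (log2 fold change 2.18, adjusted p = 0.049). In each case both THC libraries were above both TLC libraries.

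The Notch ligands Jag2 and Dll1, which basal cells present to luminal cells, belonged to the same group. Jag2 had 94.5 and 110 CPM in THC and 19.5 and 13.1 CPM in TLC (log2 fold change 2.67 ± 0.294 SE, adjusted p = 0.003). Dll1 had 85.6 and 84 CPM in THC and 20.7 and 12.4 CPM in TLC (log2 fold change 2.38 ± 0.317 SE, adjusted p = 0.0053). Egr2 and the secreted Wnt inhibitor Wif1 completed the 7 genes, at 1.41 and 2.66 on the log2 scale. The Wnt-responsive stem cell receptor Lgr5 did not follow: it had 102 and 102 CPM in THC and 118 and 62.2 CPM in TLC, and the populations overlapped (log2 fold change 0.18 ± 0.38 SE, adjusted p = 0.95). Sox10, with 36 and 134 CPM in THC and 54.7 and 134 CPM in TLC, differed more within populations than between them.

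Keratins and adhesion genes of basal cells had fewer calls. Lama3, Lamb3, Sparc and Itga3 rose among 16 genes, against 1.52% of all genes. None fell, and the median log2 fold change was 0.99. Krt5 had 652 and 408 CPM in THC and 178 and 81.2 CPM in TLC, without overlap, yet missed the threshold (log2 fold change 2.03 ± 0.466 SE, adjusted p = 0.062). Krt14, its partner in the basal filament, had 1162.2 and 628 CPM in THC and 676 and 380 CPM in TLC (log2 fold change 0.76 ± 0.505 SE, adjusted p = 0.68), and one THC library lay below one TLC library. Both keratins were present in TLC, whereas LC held 8.62 CPM of Krt5 and 22.7 CPM of Krt14 on average. Krt17 had a log2 fold change of 1.02 and Col17a1, a hemidesmosome collagen, of 1.78, and neither was called. Krt6a had 24 and 16.5 CPM in THC and 68.8 and 67.4 CPM in TLC (log2 fold change -1.78, adjusted p = 0.076).

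The laminin chains of the basal adhesion complex were among the called genes. Lama3, the alpha chain of laminin-332, had 363 and 319 CPM in THC and 112 and 71.6 CPM in TLC (log2 fold change 1.90 ± 0.269 SE, adjusted p = 0.0073). Its beta chain Lamb3 had 185 and 189 CPM in THC and 85.8 and 75.5 CPM in TLC (log2 fold change 1.21 ± 0.217 SE, adjusted p = 0.021). Neither chain overlapped between the populations.

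Basement membrane and matrix genes rose in 9 of 25 cases, against 1.52% of all genes, and fell in none. The median log2 fold change was 1.34. The paired collagen IV genes Col4a1 and Col4a2 stood high, with Col4a1 at 437 and 462 CPM in THC and 72.1 and 58.7 CPM in TLC. Col4a2 had 244 and 305 CPM in THC and 30.2 and 35.6 CPM in TLC, 8.34-fold higher in THC (log2 fold change 3.06 ± 0.466 SE, adjusted p = 0.014). The other collagen IV pair behaved differently: Col4a5 and Col4a6 had log2 fold changes of -0.15 and -0.15 and were not called. Fbln2, Lama1, Hspg2, Col16a1 and Col18a1 were the remaining called genes beside the laminin-332 chains, at 2.31, 2.07, 1.49, 1.83 and 1.82.

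Desmosome and hemidesmosome genes had a negative log2 fold change in 10 of 15 cases, against 9505 of all 19757 genes. The median was -0.27, only Pkp1 fell and none rose. The shares of all genes that fell and rose were 0.0911% and 1.52%. The summed CPM of the list was 6594.9 and 6211.4 in THC and 6101.7 and 5713.5 in TLC. Pkp1, a plakophilin that strengthens desmosomes, had 186 and 179 CPM in THC and 391 and 493 CPM in TLC, 2.42-fold higher in TLC (log2 fold change -1.28 ± 0.228 SE, adjusted p = 0.021). The desmosomal cadherin Dsg3 had 34.1 and 23.7 CPM in THC and 51.9 and 50.4 CPM in TLC, against 0.541 CPM on average in LC, and was not called (log2 fold change -0.84, adjusted p = 0.53).

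**Figure D2:**
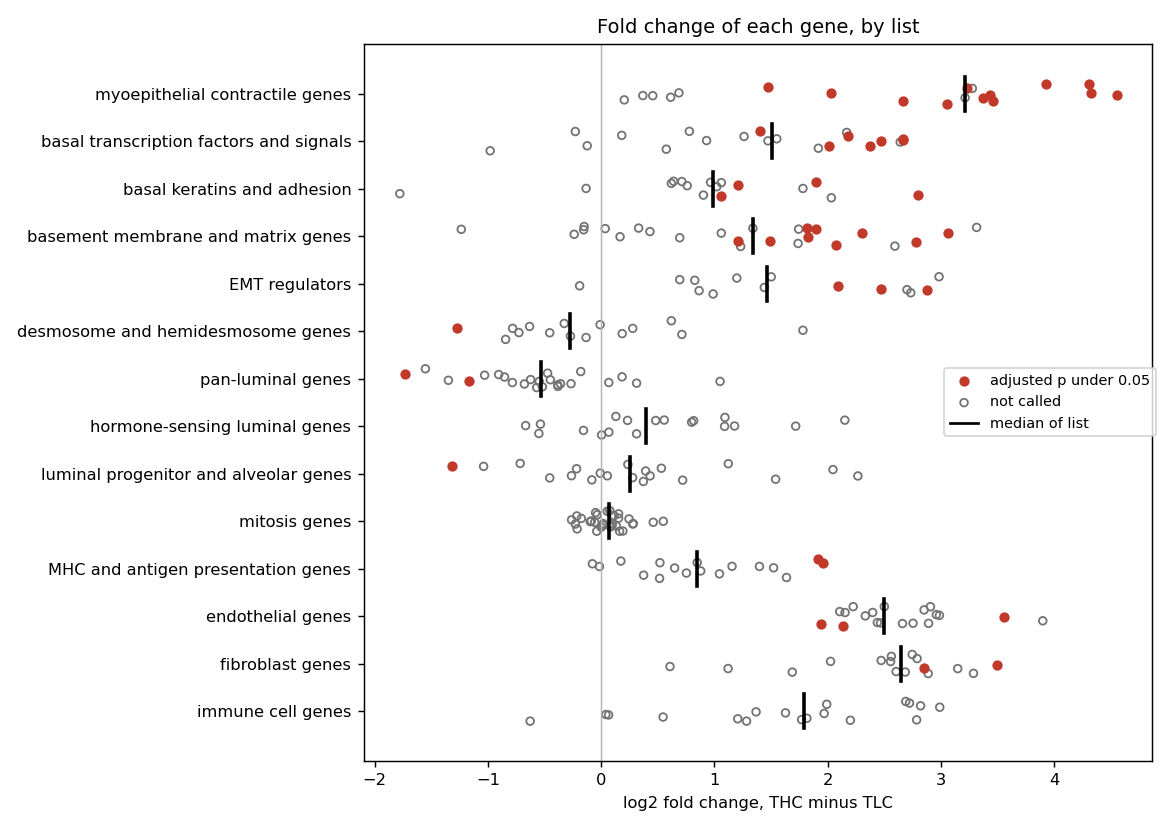
Log2 fold change of THC minus TLC for each tested gene of 14 lists (1 point per gene; red, adjusted p under 0.05; open, not called; black bar, median of the list). The contractile genes have a median of 3.21, pan-luminal genes one of -0.53 and mitosis genes one of 0.07; the endothelial and fibroblast lists, with medians of 2.50 and 2.65, also lie to the right of 0.

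Genes shared by all luminal cells were lower in THC as a tendency, and few passed the test. Of 24 pan-luminal genes, 20 had a negative log2 fold change, the median was -0.53, and Ehf and Cldn7 fell while none rose; the share of all genes that fell was 0.0911%. Both THC libraries were below both TLC libraries for 18 of the 24, against 16.5% of all genes. Ehf, an ETS transcription factor of luminal cells, had 113 and 217 CPM in THC and 570 and 530 CPM in TLC, 3.31-fold higher in TLC (log2 fold change -1.73 ± 0.34 SE, adjusted p = 0.031). Cldn7, a tight-junction claudin, had 59.3 and 54.1 CPM in THC and 148 and 106 CPM in TLC (log2 fold change -1.16 ± 0.216 SE, adjusted p = 0.024). Both genes separated the populations.

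The luminal keratins showed smaller differences. Krt8 had 1004.9 and 649 CPM in THC and 1417.6 and 1226.2 CPM in TLC (log2 fold change -0.68 ± 0.317 SE, adjusted p = 0.43). Krt18 overlapped, with 1044 and 691 CPM in THC and 1302.3 and 920 CPM in TLC (log2 fold change -0.36 ± 0.371 SE, adjusted p = 0.85). Krt19 had 544 and 426 CPM in THC and 778 and 659 CPM in TLC (log2 fold change -0.57 ± 0.263 SE, adjusted p = 0.42). The THC libraries thus held keratins of both layers, none of these 5 below 408 CPM. Epcam and Cdh1, the adhesion proteins of luminal cells, had log2 fold changes of -0.47 and -0.85 and were not called. The tight-junction genes Cldn3, Cldn1 and Ocln lay at -0.90, -1.35 and -1.03 with adjusted p = 0.064, 0.057 and 0.15.

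Of the hormone-sensing genes none of 18 was called, 4 had an unadjusted p under 0.05, and the median log2 fold change was 0.40; DESeq2 and limma-voom each called 1 higher. Esr1, the oestrogen receptor, had 105 and 132 CPM in THC and 90.2 and 112 CPM in TLC (log2 fold change 0.23 ± 0.235 SE, adjusted p = 0.84). Pgr, the progesterone receptor, had 183 and 223 CPM in THC and 110 and 166 CPM in TLC (log2 fold change 0.56 ± 0.297 SE, adjusted p = 0.53). Foxa1, the pioneer factor of oestrogen-responsive cells, had 194 and 225 CPM in THC and 256 and 353 CPM in TLC (log2 fold change -0.54, adjusted p = 0.47). Areg, the EGF receptor ligand that oestrogen induces, was the nearest to the threshold, with 225 and 187 CPM in THC and 109 and 83.5 CPM in TLC (log2 fold change 1.09 ± 0.253 SE, adjusted p = 0.058).

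Among 20 luminal progenitor and alveolar genes only Wfdc18 fell and none rose, with a median of 0.26. Wfdc18, a secreted whey acidic protein family member, had 96.5 and 127 CPM in THC and 284 and 273 CPM in TLC (log2 fold change -1.31 ± 0.29 SE, adjusted p = 0.049). Elf5, the alveolar ETS factor, had 40.3 and 106 CPM in THC and 97.4 and 81.8 CPM in TLC (log2 fold change -0.26, adjusted p = 0.92). Kit, the progenitor receptor, had 82.9 and 269 CPM in THC and 181 and 306 CPM in TLC (log2 fold change -0.45, adjusted p = 0.87). The THC libraries spanned or overlapped the TLC range for both genes. Of 12 milk genes none was called, 4 had an unadjusted p under 0.05, and DESeq2 and limma-voom each called 1. The casein Csn2 had 336 and 481 CPM in THC and 22.3 and 133 CPM in TLC (log2 fold change 2.39 ± 1.11 SE, adjusted p = 0.48), a wide gap with a wide error.

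No proliferation gene passed the test. Of 30 mitosis genes none was called by edgeR, DESeq2 or limma-voom, none had an unadjusted p under 0.05, and the median log2 fold change was 0.07. Mki67, the proliferation antigen, had 396 and 499 CPM in THC and 582 and 466 CPM in TLC (log2 fold change -0.23 ± 0.511 SE, adjusted p = 0.96). Top2a, the mitotic topoisomerase, had 260 and 270 CPM in THC and 290 and 186 CPM in TLC (log2 fold change 0.16 ± 0.668 SE, adjusted p = 0.98). The summed CPM of the mitosis list was 1924.9 and 2124.8 in THC and 2338.5 and 1752.9 in TLC, while TBC held 294 and 1234.7, which lie far apart, BC 107 and 117, and LC 201 and 342. In the promoters, the CHR element of mitosis genes (TTTGAA, both strands, in 250 bases) stood in 8 of 26 promoters of 25 of the 30 genes (30.8%), against 16% of all promoters. Of 25 DNA replication genes none was called by any of the 3 tools or had an unadjusted p under 0.05, and the median was -0.19.

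Markers of other cell types moved with the populations as well. All 19 endothelial genes had a positive log2 fold change and an unadjusted p under 0.05, 3 of them rose (Sox18, Eng and Egfl7), none fell, and the median was 2.50. Their summed CPM was 1221.4 and 1258.6 in THC and 205 and 245 in TLC, with 218 to 807 in the libraries of TBC, BC and LC. The endothelial junction gene Pecam1 had 183 and 161 CPM in THC and 33.9 and 31.3 CPM in TLC (log2 fold change 2.40, adjusted p = 0.21). Sox18, an endothelial transcription factor, had 6.59 and 9.45 CPM in THC and 0.351 and 0.91 CPM in TLC, from 2 and 10 counts, and no gene of the list was at 0 in these 4 libraries. In bulk RNA, fewer cells of a type and less RNA per cell cannot be told apart.

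Fibroblast genes were positive in 16 of 16 cases with a median of 2.65, and 2 rose. Their summed CPM was 2022.6 and 3083.8 in THC and 286 and 523 in TLC. It was 3864.3 and 2700.1 in TBC, 1927.7 and 2402.6 in BC, and 503 and 348 in LC. By this sum, in which Postn alone averaged 696 CPM in THC and 2097.2 CPM in TBC, THC overlapped TBC and BC. By the mean log2 CPM of the list THC was above both. That mean was 5.38 and 5.98 in THC, 4.62 and 5.16 in TBC, and 4.49 and 4.15 in BC. The 2 called genes, Postn and Pdgfrb, were also high in BC, with 1404 and 30.5 CPM on average; Col1a1 had 244 and 720 CPM in THC and 30.3 and 132 CPM in TLC (log2 fold change 2.56, adjusted p = 0.18). Of 9 pericyte genes 2 rose, Pdgfrb and Cspg4, none fell, and the median was 2.62; DESeq2 called 3 higher and 1 lower. Notch3 and Anpep lay at -1.03 and -0.77, both without overlap. The summed CPM of the pericyte list was 669 and 599 in THC and 636 and 778 in TLC, so the sums of the populations overlapped. Rgs5, a marker of pericytes, had 179 and 110 CPM in THC and 9.82 and 15.5 CPM in TLC (log2 fold change 3.48, adjusted p = 0.21). Of 18 immune genes none was called, 7 had an unadjusted p under 0.05, DESeq2 called 3 higher and limma-voom none, and the median was 1.79; Ptprc, the pan-leukocyte CD45, had 22.1 and 12.1 CPM in THC and 1.05 and 2.91 CPM in TLC. None of 6 adipocyte, 2 skeletal muscle and 1 erythrocyte genes was called by edgeR; 1 of them, an adipocyte gene, had an unadjusted p under 0.05, and DESeq2 and limma-voom called none.

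Vascular smooth muscle and pericytes carry Acta2, Myh11, Tagln and Des too, and endothelium and fibroblasts make collagen IV. With the mean of the endothelial list as a covariate, 75 genes were called, 31 of them shared with the 318. This fit was chosen after seeing the data. That mean was 5.33 and 5.32 in THC and 2.64 and 2.85 in TLC, so the covariate ran with the contrast. Its slope came from differences between replicates of a population. These were largest in BC (4.80 and 3.11) and LC (3.92 and 2.08), and the mean was 3.79 and 3.79 in TBC. The values of this fit for THC and TLC thus rest mostly on how the BC and LC replicates differed. The fit therefore cannot separate an endothelial part from the contrast, whether a call is lost or kept. In that fit 4 of the 19 contractile genes were called, among them Cnn1, Tagln and Oxtr, and the median of the contractile list was 2.22. Acta2 lost its call (log2 fold change 3.83, adjusted p = 0.093; range over 15 alternatives 7.6e-41 to 0.11), as did Myh11 (4.11, adjusted p = 0.08; range 6.9e-40 to 0.094). The low end of such a range can come from a single setting. For Cnn1 it was 9.7e-47 in edgeR with no low-count filter, against 0.0015 with RLE factors. The covariate fit left 1 called gene of 25 in the matrix list and 1 of 20 among basal transcription factors and signals. It left none among 16 basal keratin and adhesion genes, 14 EMT regulators or 17 antigen presentation genes. The medians of these 5 lists in that fit were 1.44, 1.24, 1.44, -0.23 and 1.23. The medians of the pericyte, milk, luminal progenitor and Notch lists turned negative, to -0.76, -0.74, -0.58 and -0.27. Jag2 was still called and Trp63 was not. The part of fibroblasts, pericytes and immune cells in these differences was not tested.

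**Figure D3:**
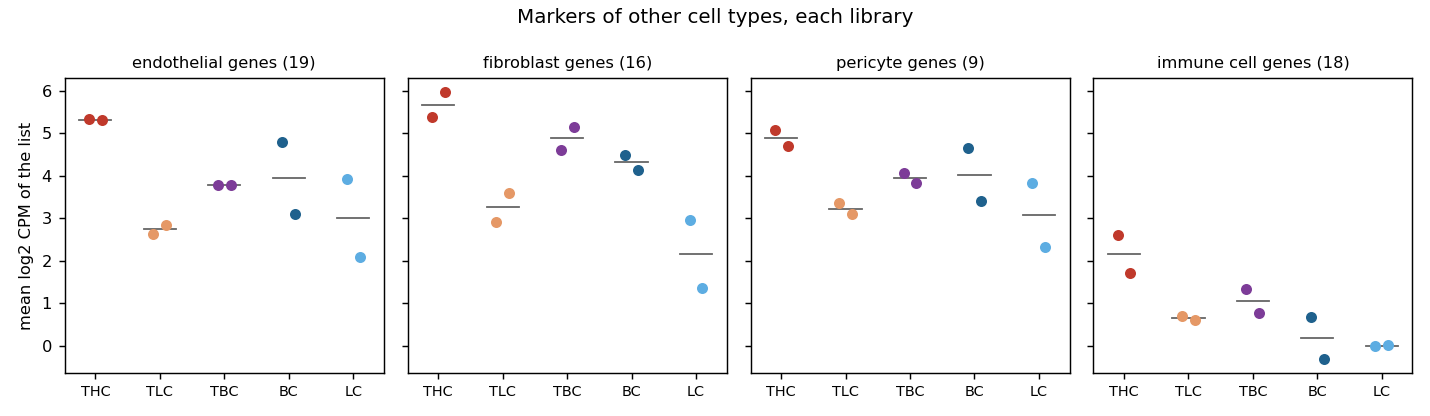
Mean log2 CPM of 4 marker lists of other cell types in each library (points, 2 per population; the line is their mean; the number of genes in brackets). The endothelial mean was 5.33 and 5.32 in THC and 2.64 and 2.85 in TLC. By this mean THC was the highest population for the endothelial, fibroblast, pericyte and immune lists. By summed CPM, THC overlapped TBC and BC for the fibroblast list.

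Regulators of epithelial-mesenchymal transition had a median of 1.47 and rose in 3 of 14 cases, with none lower. The 3 were Snai2, Mmp2 and Fn1. Mmp2, a matrix metalloproteinase, had 113 and 106 CPM in THC and 17.5 and 12.5 CPM in TLC (log2 fold change 2.88 ± 0.495 SE, adjusted p = 0.024), and TBC and BC held 294 and 318 CPM on average. Fn1, fibronectin, had 289 and 280 CPM in THC and 82.1 and 51.8 CPM in TLC (log2 fold change 2.09, adjusted p = 0.035). Unlike Mmp2, its level in THC was above the averages of 125 CPM in TBC and 20.1 CPM in BC. Zeb1 and Zeb2, the mesenchymal zinc-finger factors, had log2 fold changes of 2.98 and 2.74 and were not called (adjusted p = 0.16 and 0.15). The fibroblast, endothelial and immune lists moved in the same direction as this list. With the endothelial mean as a covariate the median turned to -0.23 and all 3 calls were lost, although Snai2, Mmp2 and Fn1 kept log2 fold changes of 2.64, 2.92 and 2.49. The part of fibroblasts and immune cells was not tested, and the covariate fit cannot separate that of endothelium.

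Of 17 antigen presentation genes 2 rose, the class II genes Cd74 and H2-Ab1, none fell, and the median was 0.85. Cd74, the class II invariant chain, had 158 and 64 CPM in THC and 30.5 and 25.8 CPM in TLC (log2 fold change 1.96 ± 0.359 SE, adjusted p = 0.023). Cd74 was spread widely between the THC libraries, and the summed immune list was higher in the same THC library, 239 and 95.3 CPM in THC and 43.9 and 36.8 CPM in TLC; the part of immune cells was not tested. The class I genes H2-K1, H2-D1 and B2m lay at 0.88, 0.85 and 1.40 on the log2 scale and were not called. Among 26 interferon-stimulated genes 23 were positive with a median of 0.53. None was called by edgeR or limma-voom, and DESeq2 called 2 higher. Of the 26 genes, 3 had an unadjusted p under 0.05, beside 2394 of all 19757 genes.

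Of 19 Notch genes, Jag2, Dll1 and Dll4 rose and none fell, while the receptors Notch1, Notch2 and Notch3 lay at -0.73, -0.53 and -1.03 on the log2 scale and were not called. Dll4, a ligand of vascular endothelium, had 12.8 and 11.5 CPM in THC and 1.75 and 3.18 CPM in TLC (log2 fold change 2.24, adjusted p = 0.044), and the endothelial list was higher in the same libraries. With the endothelial covariate Dll4 had 1.08 and was not called (adjusted p = 0.61, range over 15 alternatives 0.00088 to 0.61). That covariate ran with the contrast, so the part of endothelial cells in this rise cannot be told apart and was not tested. Of 31 Wnt genes, 3 rose and none fell, against 1.52% of all genes that rose. They were Axin2, the feedback target of canonical Wnt signalling, at 1.93, the secreted inhibitor Wif1 at 2.66 and Dkk3 at 1.23. Axin2 had 16.7 and 20.5 CPM in THC and 4.39 and 5.37 CPM in TLC (adjusted p = 0.021).

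In the TGF-beta and BMP pathway 3 of 26 genes rose, namely the latent TGF-beta binding protein Ltbp2, the co-receptor Tgfbr3 and Id4, and none fell. Tgfbr3 had 231 and 387 CPM in THC and 82.6 and 58.2 CPM in TLC (log2 fold change 2.14, adjusted p = 0.013). Of 19 targets of YAP and TAZ, the mechanosensitive co-activators, Ccn2 and Axl rose and none fell. Ccn2 had 282 and 232 CPM in THC and 60.3 and 46.6 CPM in TLC (log2 fold change 2.27 ± 0.283 SE, adjusted p = 0.0045). Fgf1 alone rose among 26 EGF and FGF genes, at 1.24, and the secreted cue Slit3 alone among 24 bilayer and axon guidance genes, at 3.12. Over all genes 1.52% rose, and no excess is read from single calls of this kind. Tnf, the cytokine, had 22.9 and 26.1 CPM in THC and 28.4 and 29.4 CPM in TLC (log2 fold change -0.23 ± 0.399 SE, adjusted p = 0.93). Of 23 TNF and NF-kappaB genes none was called by edgeR or limma-voom, 3 had an unadjusted p under 0.05, and DESeq2 called 1 higher. The p53, immediate-early, heat-shock and cholesterol lists held no called gene by any of the 3 tools, with 2, 4, 0 and 0 members at an unadjusted p under 0.05.

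Large rises also occurred outside these lists. Kcnmb1, the beta subunit of the smooth-muscle calcium-activated potassium channel, had 9.3 and 21 CPM in THC and 0.175 and 0.91 CPM in TLC (log2 fold change 4.62 ± 0.731 SE, adjusted p = 0.018). Scn7a, a sodium channel, had 72.4 and 151 CPM in THC and 5.09 and 8.46 CPM in TLC (log2 fold change 4.03, adjusted p = 0.021). Reln, the secreted glycoprotein reelin, had 50.7 and 150 CPM in THC and 8.07 and 6.1 CPM in TLC (log2 fold change 3.87, adjusted p = 0.021). All 3 were also high in BC, at 28.4, 1296.9 and 107 CPM on average. Ngfr and Pmp22, which Schwann cells also express, rose by 3.34 and 2.41 on the log2 scale and were the called genes among 11 Schwann genes. Tmem200a, Clip3, Mrvi1, Bcat1, Serpinb10 and Adamts20 rose by 4.25, 4.03, 3.91, 4.07, 4.62 and 3.85. The unnamed gene model Gm43126 rose by 4.10, and since the sources used here do not say whether the counting used strand, reads of overlapping genes on the other strand may be included.

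The control populations, which share no library with THC or TLC, gave the lineage of each called gene. Of the 300 genes higher in THC, 233 (77.7%) were higher in BC than in LC, 11 (3.67%) were higher in LC, and 56 (18.7%) were not called between BC and LC. Of all genes tested, 12.5% were higher in BC and 11.5% higher in LC. The median of BC minus LC over the 300 genes was 3.78 on the log2 scale. Their median level was 26.2 CPM in THC and 5.37 CPM in TLC, with 49.3 CPM in TBC, 41.8 CPM in BC and 3.61 CPM in LC. Both THC libraries were below both TBC libraries for 216 of the 300 (72%), so for most of these genes THC lay between TLC and TBC. The share was 25.5% over all genes and 77.8% over the 2468 genes higher in BC than in LC. It is thus not particular to the 300.

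**Figure D4:**
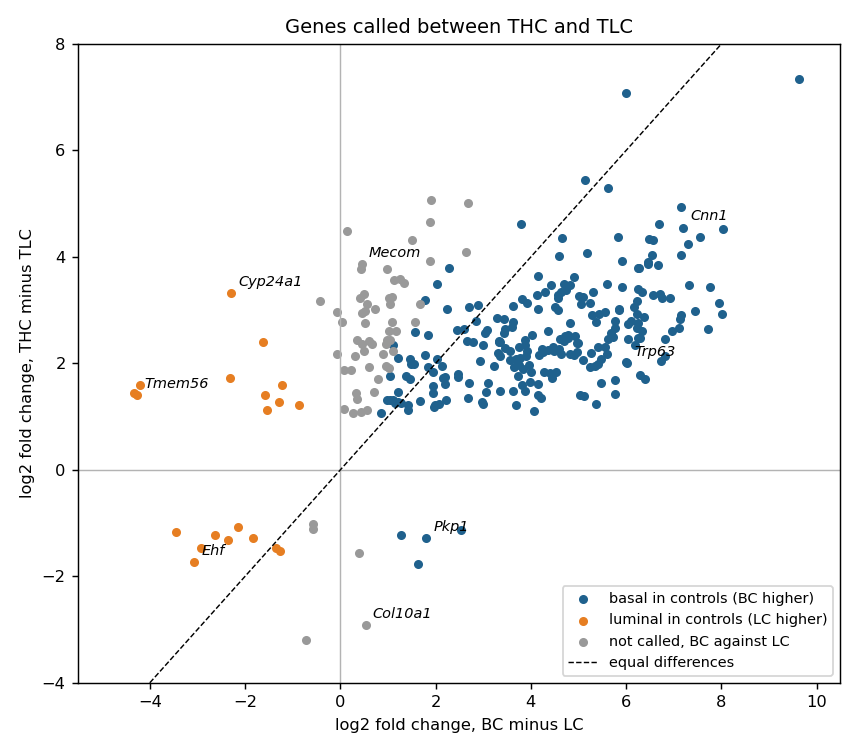
Log2 fold change of THC minus TLC (vertical) against that of BC minus LC (horizontal) for the 318 called genes, coloured by the call between BC and LC; the dashed line marks equal differences. Most genes lie at the upper right and below the dashed line, Mecom lies above it, and Tmem56 and Cyp24a1 lie at the upper left.

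Whether the gap between THC and TLC equalled that between BC and LC was tested gene by gene as a double difference, THC minus TLC less BC minus LC. Among all genes 1627 (8.24%) were called, 952 with a positive (4.82%) and 675 with a negative value (3.42%). Of the 300 genes higher in THC, 104 had a called negative value and 21 a called positive one. BC minus LC is part of this value, so its sign is not independent of the lineage of a gene. Of the 2468 genes higher in BC than in LC, 665 had a called negative value and 1 a called positive one. Of the 2274 genes higher in LC, 907 had a called positive value and 0 a called negative one. Trp63 differed by 2.01 between THC and TLC and by 6.02 between BC and LC (double difference -4.01 ± 0.445 SE, adjusted p = 0.00037). Krt14 had the most negative value among the genes named by rule, -5.90, since BC and LC differed by 6.66. Of the 19 contractile genes 10 had a called negative value and none a called positive one, with a median of -2.15, beside a median of -1.80 and 8 of 16 called for basal keratins and adhesion. Tpm2, Mylk and Lmod1 had -3.97, -3.56 and -3.12, Cnn1 had -2.64 (adjusted p = 0.013) and Oxtr -2.48 (adjusted p = 0.017), while the values of Acta2, Myh11 and Tagln, at -2.15, -2.25 and -1.36, were not called.

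On the luminal side the double differences were positive, as were all called ones among the genes higher in LC. Krt8, Krt18 and Krt19 had values of 1.82, 2.43 and 3.15 (adjusted p = 0.029, 0.016 and 0.00061). Esr1, Pgr and Foxa1 had values of 3.44, 3.74 and 3.72 (adjusted p = 0.00022, 0.00045 and 0.00027). For these 6 genes BC minus LC lay between -4.26 and -2.50 on the log2 scale, whereas THC minus TLC lay between -0.68 and 0.56. In TLC, Esr1 and Pgr averaged below their LC levels of 456 and 611 CPM.

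The 11 genes that were higher in THC although luminal in controls were Cyp24a1, Galnt15, Kif5c, Trpc6, C1qtnf1, Piezo2, Tmem56, H2-Q6, Lipa, Ace and Cd200; apart from Piezo2 and Tmem56 they were picked out after their values were seen. Tmem56, a membrane protein gene on chromosome 3 at 121201761 to 121283098, had 370 and 498 CPM in THC and 150 and 177 CPM in TLC (log2 fold change 1.41 ± 0.243 SE, adjusted p = 0.019), and averaged 55.6 CPM in TBC, 83.5 CPM in BC and 1602.8 CPM in LC. Piezo2, a mechanically gated cation channel, had 71.7 and 75.3 CPM in THC and 25.4 and 28.6 CPM in TLC (log2 fold change 1.44 ± 0.291 SE, adjusted p = 0.034), and 339 CPM in LC. Both genes stood highest in LC, next in THC, and lower in TLC.

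Trpc6, a calcium-permeable cation channel, had the same order, with 17.4 and 24.2 CPM in THC and 4.74 and 8.92 CPM in TLC (log2 fold change 1.60, adjusted p = 0.045), and 113 CPM in LC. Cyp24a1, the enzyme that inactivates vitamin D, had 15.5 and 26.3 CPM in THC and 2.28 and 2.0 CPM in TLC, 9.97-fold higher in THC (adjusted p = 0.005), and 11.1 CPM in LC. Kif5c, a kinesin heavy chain, had 45.7 and 32.9 CPM in THC and 12.3 and 11.4 CPM in TLC (adjusted p = 0.02), and 136 CPM in LC. Areg, though not called, also stood highest in LC, at 416 CPM, and higher in THC than in TLC.

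Among the 56 genes not called between BC and LC were Mecom, Gja5, Gbp4, Gbp9, Igf1, Des, Dll4, Cd74, H2-Ab1, Eng, Egfl7 and Sox18. Mecom, a zinc-finger transcription factor, had 16.3 and 18.6 CPM in THC and 1.58 and 0.91 CPM in TLC (log2 fold change 3.86 ± 0.6 SE, adjusted p = 0.011), above the averages of 5.78, 5.06 and 3.64 CPM in TBC, BC and LC. Gja5, the connexin of arterial endothelium, had 14.7 and 15.8 CPM in THC and 2.11 and 1.27 CPM in TLC (adjusted p = 0.0046). Gbp4, an interferon-induced GTPase, had 37.6 and 25.1 CPM in THC and 3.33 and 4.19 CPM in TLC (adjusted p = 0.0098). Gja5, Gbp4, Gbp9 and Igf1 were picked out after their values were seen. The part of endothelial cells in these rises was not tested, since the covariate fit cannot separate it from the contrast. The endothelial list was higher in the same libraries. With its mean as a covariate, the log2 fold change of Mecom was 2.09 and its call was lost (adjusted p = 0.27; range over 15 alternatives 5.9e-10 to 0.27). Gbp4 likewise had 1.67 (adjusted p = 0.3; range 6.4e-10 to 0.3), and Gja5 had 3.14 (adjusted p = 0.097; range 1.3e-07 to 0.21).

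The 18 genes lower in THC were of mixed lineage, with luminal genes the largest part. Of them, 9 (50%) were higher in LC than in BC, 4 (22.2%) higher in BC and 5 (27.8%) called neither way. Over all genes tested these shares were 11.5%, 12.5% and 76%. Arhgef28, Ptpn13, Pkp1 and Slc4a4 were the 4 basal ones. Slc4a4, a sodium bicarbonate cotransporter, had 26 and 20.2 CPM in THC and 78.2 and 76.2 CPM in TLC (log2 fold change -1.76 ± 0.315 SE, adjusted p = 0.021), with 19, 14.7 and 4.81 CPM on average in TBC, BC and LC, so TLC stood above every other population. Arhgef28, a guanine nucleotide exchange factor, had 62 and 48.6 CPM in THC and 124 and 116 CPM in TLC (log2 fold change -1.13, adjusted p = 0.027), and LC averaged 20.2 CPM. Ptpn13, a protein tyrosine phosphatase, had 107 and 89 CPM in THC and 222 and 230 CPM in TLC (log2 fold change -1.22, adjusted p = 0.02). In all 3 genes the gap between the populations exceeded the gap between replicates.

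**Figure D5:**
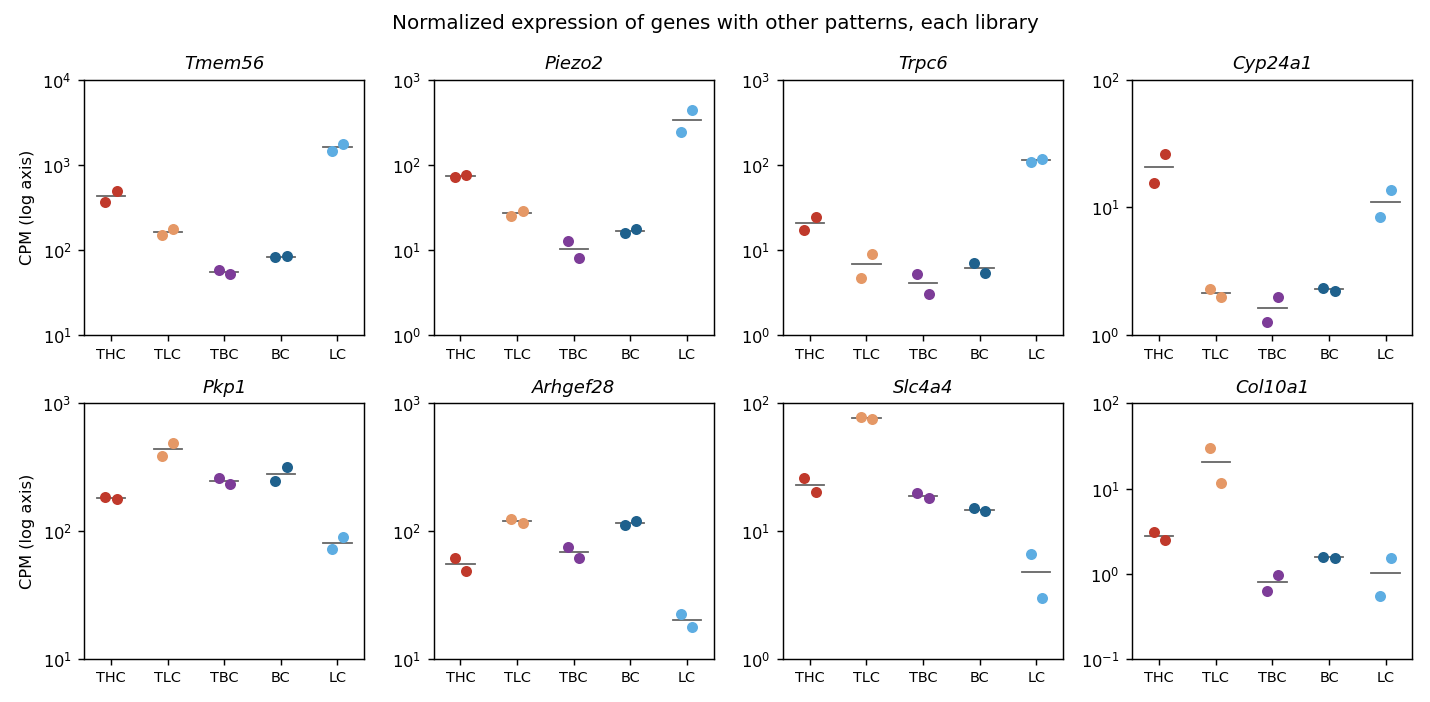
CPM on a log axis in each library (points, 2 per population; the line is their mean) for 4 genes higher in THC though luminal in controls (Tmem56, Piezo2, Trpc6, Cyp24a1) and 4 genes lower in THC than in TLC (Pkp1, Arhgef28, Slc4a4, Col10a1). Slc4a4 and Col10a1 were higher in both TLC libraries than in every other library.

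Col10a1, a collagen of hypertrophic cartilage, showed the largest fall among the named genes, with 3.1 and 2.5 CPM in THC and 29.8 and 11.6 CPM in TLC (log2 fold change -2.92 ± 0.57 SE, adjusted p = 0.03); TBC, BC and LC held 0.792, 1.55 and 1.02 CPM on average. The luminal genes that fell included Kcnn4, a calcium-activated potassium channel, at -1.22, Zfp750, a zinc-finger factor of epithelial differentiation, at -1.46, Myo5b, a myosin of apical transport, at -1.47, and Grpel2 and Esyt3, at -1.28 and -1.53. Kcnn4 had 32.2 and 29.2 CPM in THC and 70.2 and 72.1 CPM in TLC (adjusted p = 0.023), and LC held 19 CPM. Rap1gap2 and Cnnm2, called in neither direction between BC and LC, fell by 1.57 and 1.12 on the log2 scale.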

How the data were processed

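RNA from cells sorted from mouse mammary gland was sequenced in bulk, in 10 libraries of 5 populations. The deposited values are raw counts per gene, made with STAR and HTSeq on GRCm38 (mm10) per the submitters' processing notes; their versions, the annotation and the strandedness used were not given in the sources used here. The 5 HTSeq summary rows were removed. Of 49671 gene identifiers 49412 were matched to GENCODE M21 for names and positions. Genes with enough counts by filterByExpr (19757) were tested with edgeR 4.0.16 (R 4.3.3) under TMM factors, with 1 coefficient per population over all 10 libraries (5 residual degrees of freedom, common dispersion 0.0715), which was tested on simulated data. Replicates differed beyond counting noise (chi-square per degree of freedom 17.4 to 30.5), so none was counted once. Called means an adjusted p under 0.05. DESeq2 1.42.0 and limma 3.58.1 (voom), other scalings and filters, thinning to 2757773 counts, a 2-fold threshold, and leaving out each replicate were alternatives. Intervals were not computed; standard errors come from the fit.

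Genes named by rule were the 15 largest rises and the 15 largest falls among called genes at 10 CPM or more in the higher population, up to 4 called members of each of 33 lists, 22 anchor genes and the 10 leading genes of the double difference. The members, lists and rules were chosen with earlier results of these data known. Lists are described by counts and medians, with no set test. Promoter sequences are RefSeq's (GRCm38.p6).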

Additional observations from a re-analysis of the deposited data

Results flagged for a closer look

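The gap between THC and TLC differed from that between BC and LC, by the test of the double difference (THC minus TLC less BC minus LC, log2 scale, edgeR), for 1627 genes over the whole table and for the named genes that follow. No explanation was tested.

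BC minus LC is part of the double difference, so its sign is not independent of lineage. Of the 2468 genes higher in BC than in LC, 665 had a called negative value and 1 a called positive one. Of the 2274 genes higher in LC, 907 had a called positive value and 0 a called negative one. Among basal genes the value was negative. It was -4.96 for Krt5, -5.90 for Krt14, -4.01 for Trp63, -3.79 for Snai2, -3.41 for Id4, -3.09 for Jag2 and -2.59 for Dll1. Contractile Cnn1 had -2.64 and Oxtr -2.48. The adhesion and matrix genes Lama3, Lamb3, Sparc and Mmp2 had -1.94, -2.47, -2.96 and -3.50. The Wnt inhibitors Wif1 and Dkk3 had -4.45 and -4.14. Tgfbr3, Ccn2 and Axl had -1.76, -2.32 and -2.71. Tmem200a, Clip3 and Mrvi1 had -3.05, -2.53 and -2.54, and Osr1 and Lrig3, which were not called between THC and TLC, had -4.91 and -3.76.

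Among genes lower in THC than in TLC the value was -3.45 for Col10a1, -3.39 for Slc4a4, -1.96 for Rap1gap2, -3.07 for Pkp1, -2.49 for Ptpn13 and -3.66 for Arhgef28. It was 1.41 for Kcnn4 and 2.28 for Cldn7.

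Luminal genes had positive values: 1.82 for Krt8, 2.43 for Krt18, 3.15 for Krt19, 1.66 for Epcam, 3.44 for Esr1, 3.74 for Pgr, 3.72 for Foxa1, 2.80 for Elf5 and 2.41 for Tnf. The leading genes of the test were Piezo2 at 5.77, Tmem56 at 5.67, Areg at 5.60, Bmp3 at 5.11, Lcp1 at 4.49, Cdo1 at 4.34, Mboat1 at 4.30 and Sort1 at 3.69. Mecom, not called between BC and LC, had 3.42.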

How the results depend on the processing

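Of 1020 values of the 68 called named genes under 15 alternatives, 644 stayed called in the same direction, 376 lost the call and none reversed; of 405 values of the 27 uncalled ones 15 became called, and 18 changed sign while uncalled. The count of genes called between THC and TLC was 318 (300 higher, 18 lower). It was 1143 (992 higher, 151 lower) with no low-count filter, 46 (46 higher, 0 lower) with a 2-fold threshold, 166 (157 higher, 9 lower) on thinned counts, and 782 (671 higher, 111 lower) with DESeq2. Lower genes numbered 29 when only the 2 populations were fitted and 35 with limma-voom. With the mean of the endothelial list as a covariate, chosen after seeing the data, 75 genes were called (60 higher), and 7 of the 68 named genes stayed called. Leaving out 1 library at a time gave 0 to 171 called genes, 0 to 170 higher and 0 to 4 lower; in those fits the lone library is assumed to vary like the other populations. The double difference called 1627 genes, 729 with the 2-fold threshold, 835 on thinned counts and 975 to 1472 without 1 library. BC against LC called 4742 genes, 2122 with the 2-fold threshold, 2801 on thinned counts and 3131 to 3685 without 1 library. The cause of these shifts was not tested, except that thinning and leaving out a library leave less data. The endothelial covariate ran with the contrast of THC and TLC, and its slope came mostly from the BC and LC replicates. That fit therefore cannot separate an endothelial part. RLE and upper-quartile factors and the filter of 5 CPM in 2 libraries kept the counts within 1.5 times.

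The labels state no pairing, but the title numbers form 2 sets. The deviations of THC and TLC within a set correlated at 0.42, and over all 10 pairs of populations at -0.01 to 0.42. With the set as a replicate block 683 genes were called between THC and TLC (581 higher, 102 lower), 307 of them among the 318, and 2443 in the double difference. Depth limits THC replicate 1 most, where 3 counts equal 1.16 CPM.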
